A study of Bienertia sinuspersici with 9 samples.

Results

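The 47 unigenes described here kept their level from young to intermediate leaves of Bienertia sinuspersici and were then at least 3.06-fold lower in mature leaves. They were chosen by these same values among the 11709 unigenes of the table of normalized expression. A unigene was taken where the ratio of its intermediate to its young mean lay between 0.8 and 1.25, the ratio of its mature to its intermediate mean was at most 0.33, every mature library lay below every young and every intermediate library, and the young mean was at least 20. The values are TPMTMM, that is TPM (a measure of each transcript's share of its library, with the same total in all libraries) adjusted between libraries with trimmed-mean factors. The levels of the members at the 3 stages are therefore a description, and no test was made of them. CER1 and GPAT4, which are named unigenes of the cuticle, were left out by name.

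The plants were wild type. Leaves under 0.3 cm were taken as young, those of 0.3 to 0.7 cm as intermediate and those over 2 cm as mature, with 3 libraries at each stage and 9 in all. Of mature leaves only the tip was sampled, so stage and leaf part cannot be told apart in any comparison with mature leaves. Which plants gave each library is not stated, and p-values measure only the spread between these libraries.

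Bienertia sinuspersici carries out C4 photosynthesis within single chlorenchyma cells, whose chloroplasts become sorted into a central and a peripheral compartment as the leaf matures. A leaf that has stopped growing no longer divides its cells, and it has laid down most of its cell walls and the cuticle, the layer of cutin and wax that epidermal cells secrete. Transcripts needed for growth and for building surface layers are therefore often abundant in young tissue and scarce in mature tissue. The transcripts were assembled from the reads without a genome. A unigene identifier gives the cluster of reads (the part up to c), the assembled gene within it (g) and the isoform of that gene (i). Part of the study's annotation was at hand, which names 199 unigenes of the table and none of the 47 members, so no function is given for them here. They came from 47 different read clusters, and none shares a cluster with another member.

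The members covered a wide range of levels. Their young means ran from 20.01 to 1469 TPMTMM with a median of 48.8, and 13 members had a young mean of 100 or more, 9 lay between 50 and 100 and 25 lay below 50. The intermediate means had a median of 48.1 TPMTMM (16.2 to 1274) and the mature means a median of 9.59 TPMTMM (1.26 to 103). The mature mean was a median of 4.57-fold lower than the intermediate mean. The ratio of mature to intermediate was at most 0.1 in 5 members, at most 0.2 in 21 and at most 0.25 in 33. From young to intermediate leaves 19 members were slightly higher and 28 slightly lower, all within the band of the rule, with a median ratio of 0.936. In bulk leaf RNA, fewer cells of a type and less RNA per cell cannot be told apart.

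Together the members took 0.769%, 0.808% and 0.604% of the summed TPM of the 3 young libraries. In the intermediate libraries they took 0.788%, 0.733% and 0.427%, and in the mature libraries 0.0764%, 0.0566% and 0.0490%. The 2 lowest shares outside mature leaves were those of young 3 and intermediate 3. Without the most abundant member the share was 0.489% to 0.604% in young leaves, 0.368% to 0.598% in intermediate leaves and 0.0480% to 0.0737% in mature leaves.

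Most unigenes that met the rule's other conditions had also dropped at the first step. Those conditions, a young mean of at least 20 and mature libraries below all young ones, themselves favour such unigenes. Of 5011 unigenes with a young mean of at least 20, 147 met the conditions on the second step, and 93 of them had an intermediate to young ratio below the band, 6 lay above it and 48 lay within it. The 48 are the 47 members and CER1. Every mature library lay below every other library in 26.2% of the 5011 unigenes and in 21% of all 11709, so the lack of overlap alone is common in these data. The members stand out by the size of the fall, which is what the rule chose.

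**Figure D1:**
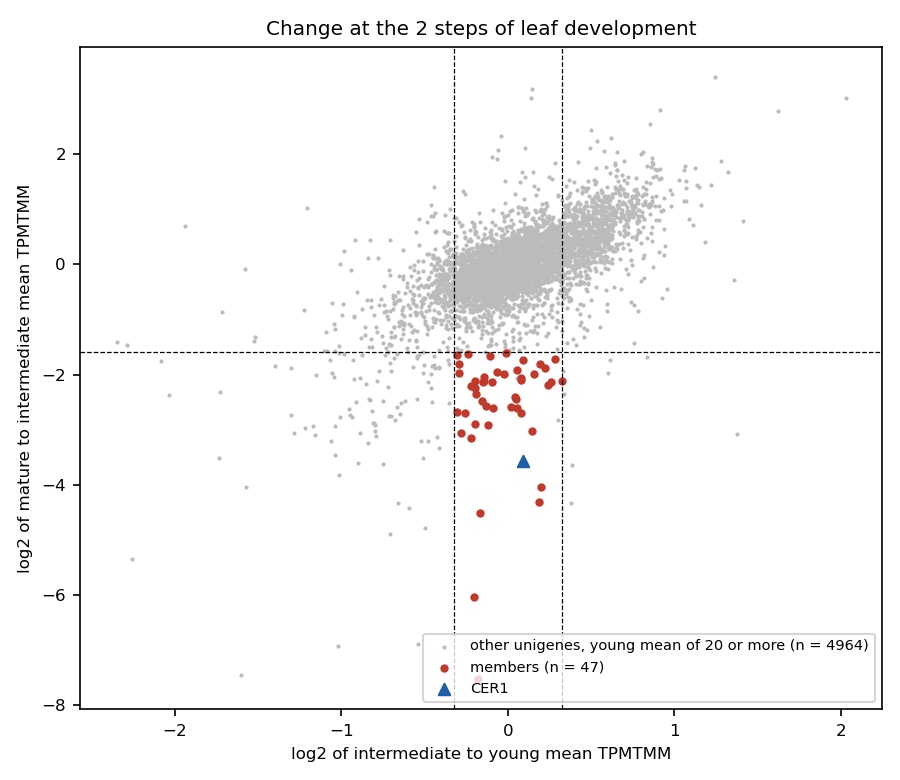
Log2 ratio of intermediate to young mean TPMTMM (x axis) against log2 ratio of mature to intermediate mean TPMTMM (y axis) for the 5011 unigenes with a young mean of at least 20. Each point is a unigene, red points are the 47 members, the blue triangle is CER1 and dashed lines are the limits of the rule. The members fill the space below the lower limit and between the side limits, and 2 of them lie far below the others.

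BS94654_c7_g1_i1 was the most abundant member and held rank 41 among the 36907 unigenes of the TPM table in young leaves. Its levels were 1680, 1721 and 1008 TPMTMM in young, 1685, 1549 and 589 in intermediate and 33.3, 12.3 and 13.1 in mature leaves. Young 3 and intermediate 3 were the low libraries of their stages, and mature 1 was the high one. The ratio of mature to intermediate was 0.0153, and its rank fell to 7501 in mature leaves.

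BS9513_c0_g1_i2, the next in level, had 785, 790 and 502 TPMTMM in young, 979, 1014 and 369 in intermediate and 82.7, 22.2 and 14.4 in mature leaves. The same libraries as in BS94654_c7_g1_i1 were low or high. BS7715_c1_g1_i1 had 513, 493 and 336 TPMTMM in young, 538, 514 and 338 in intermediate and 83.9, 91.1 and 80.9 in mature leaves. Its mature libraries lay close together, although its young and intermediate libraries of number 3 were again the low ones.

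BS6039_c0_g1_i1 showed the smallest ratio of mature to intermediate among the members, 0.00545. It had 410, 466 and 180 TPMTMM in young, 409, 369 and 154 in intermediate and 1.23, 1.23 and 2.61 in mature leaves. TPMTMM holds rounded TPM with 1 added, so these mature values are at or next to the lowest that the table can hold. In TPM the unigene had 0.20, 0.28 and 0.50 in the mature libraries against 153 to 459 in the intermediate libraries, and the ratio, with the libraries scaled by the same factors, was 0.00134. In young leaves it held rank 316 of 36907.

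BS63704_c0_g1_i1 was the only member listed at 0 TPM in all 3 mature libraries. It had 29.1, 30.3 and 36.8 TPMTMM in young leaves and 28.4, 27.3 and 29.97 in intermediate leaves. These 6 libraries lay close together, and with no counts behind the TPM no limit can be set on its mature level. BS2591_c0_g1_i2 had 41.1, 43.7 and 41.1 TPMTMM in young, 51.5, 51.8 and 41.0 in intermediate and 3.70, 2.46 and 2.61 in mature leaves, a ratio of mature to intermediate of 0.0608. BS2271_c0_g1_i1, the next in this order, had a ratio of 0.112, with 32.6, 34.5 and 37.6 TPMTMM in young, 27.5, 27.3 and 35.0 in intermediate and 2.47, 3.69 and 3.92 in mature leaves. In both unigenes the highest mature library was far below the lowest of the other 6.

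The ratio of mature to intermediate was 0.120 in BS41287_c0_g1_i2, which had 287, 310 and 298 TPMTMM in young, 289, 256 and 191 in intermediate and 39.5, 28.3 and 20.9 in mature leaves. BS33782_c0_g1_i3 had 256, 276 and 181 TPMTMM in young, 307, 306 and 175 in intermediate and 69.1, 13.5 and 14.4 in mature leaves. In the latter, mature 1 stood well above the other mature libraries, while in BS41287_c0_g1_i2 the 3 values were spread evenly.

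In BS2820_c0_g2_i1, as in the more abundant BS95488_c0_g1_i1 below, young 3 was the high young library. BS2820_c0_g2_i1 had 197, 204 and 293 TPMTMM in young, 221, 216 and 192 in intermediate and 44.4, 52.9 and 48.3 in mature leaves. BS2032_c4_g1_i1 had 231, 239 and 207 TPMTMM in young, 224, 203 and 183 in intermediate and 75.3, 34.5 and 28.7 in mature leaves. BS249_c0_g1_i1 had 196, 197 and 153 TPMTMM in young, 187, 163 and 140 in intermediate and 9.87, 33.2 and 44.4 in mature leaves. Mature 1 was the high library in BS2032_c4_g1_i1 and the low one in BS249_c0_g1_i1.

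BS95488_c0_g1_i1 lay closest to the limit, with a ratio of mature to intermediate of 0.327. It had 295, 305 and 352 TPMTMM in young, 342, 329 and 275 in intermediate and 194, 57.9 and 57.4 in mature leaves. Mature 1 stood far above the other mature libraries, and its value was 0.705 of the lowest value at the other stages, the closest approach of any member (median 0.346). The other members just inside the limit were BS25238_c0_g1_i1 (0.325), BS204_c0_g2_i1 (0.321), BS4376_c0_g1_i12 (0.317), BS642_c0_g1_i1 (0.306) and BS37_c0_g1_i3 (0.2997). Just outside it lay BS778_c0_g1_i1 (0.333), BS5810_c0_g1_i1 (0.335), BS4803_c4_g1_i2 (0.340) and BS22458_c0_g1_i13 (0.341). At the first step, BS6436_c0_g1_i1 and BS68_c0_g1_i10, both with a ratio of intermediate to young of 1.26, and BS75756_c0_g1_i1 and BS1609_c0_g1_i5, both with 0.782, lay just outside the band.

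**Figure D2:**
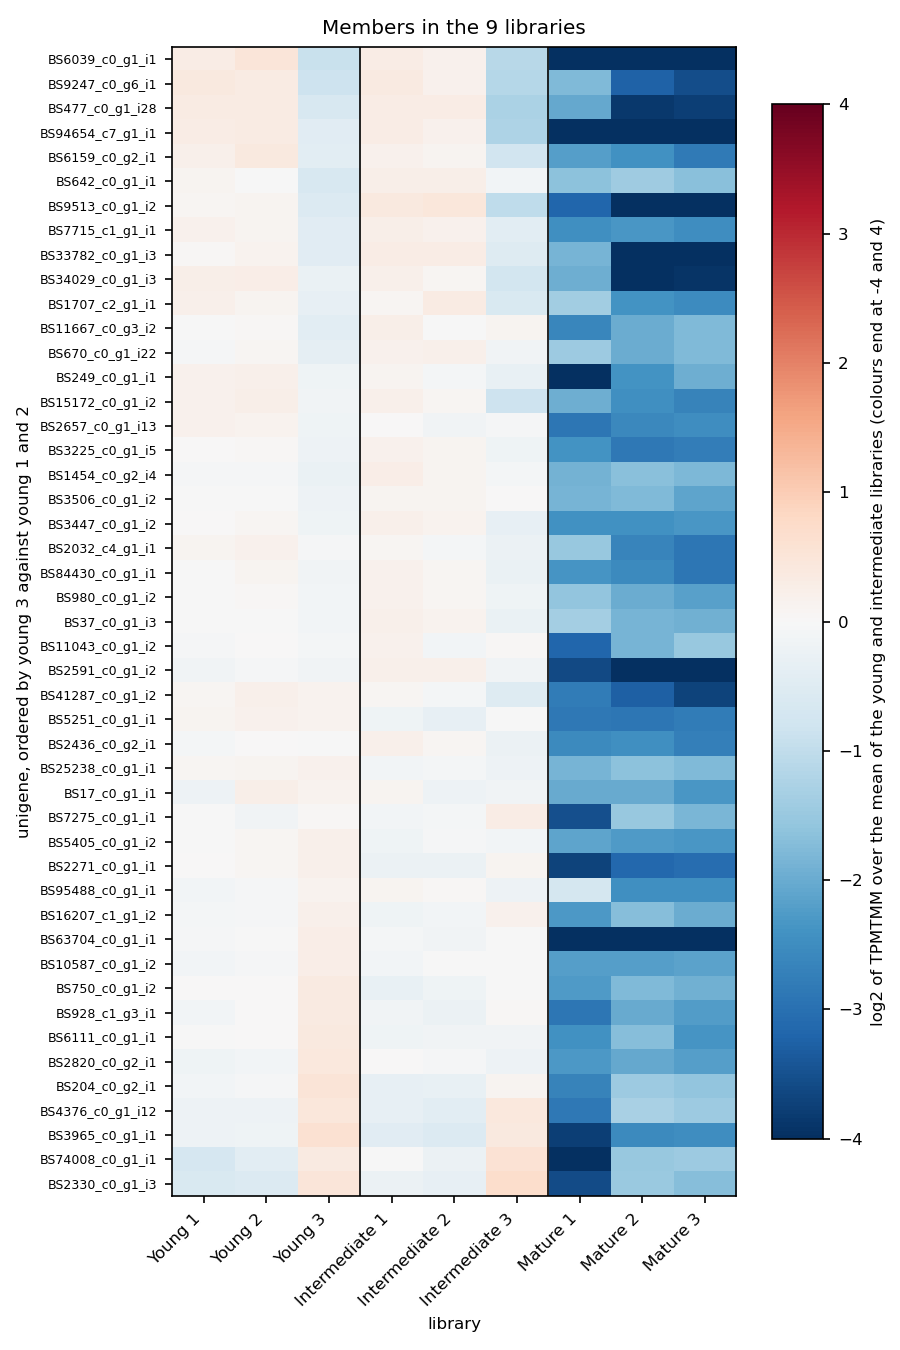
TPMTMM of the 47 members (rows) in the 9 libraries (columns), as log2 of the value over the mean of the member's 6 young and intermediate libraries. The rows run from members whose young 3 was lowest against young 1 and 2 to those whose young 3 was highest, and mature libraries are blue in every row.

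The members differed in the direction in which single libraries departed from their stage. The rule set no direction for single libraries, but its band and its lack of overlap bound how far they could depart. Young 3 was the lowest young library in 25 members, the highest in 17 and lay between the others in 5. Of the 25 members with a low young 3, intermediate 3 was also the lowest intermediate library in 22 and the highest in 0, and mature 1 was the highest mature library in 15 and the lowest in 5. Of the 17 with a high young 3, intermediate 3 was the highest in 11 and the lowest in 3, and mature 1 was the lowest in 13 and the highest in 2. BS6039_c0_g1_i1, BS94654_c7_g1_i1 and BS9513_c0_g1_i2 belong to the first kind, as do 7 of the 10 most abundant members. BS2330_c0_g1_i3 is of the second kind, with 38.6, 40.4 and 82.3 TPMTMM in young, 49.8, 47.3 and 95.9 in intermediate and 4.93, 20.9 and 18.3 in mature leaves. BS74008_c0_g1_i1 was alike, with 26.6, 31.97 and 55.1 in young, 41.8, 36.4 and 63.9 in intermediate and 2.47, 14.8 and 15.7 in mature leaves.

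This structure was also present among the 5011 unigenes with a young mean of at least 20, so it is not particular to the members. Unigenes with a lower young mean were not split in this way. Young 3 was the lowest young library in 2369 of the 5011 and the highest in 2060. Of the 2369, intermediate 3 was the lowest in 57.2% (members 88%) and the highest in 29.9% (members 0%). Mature 1 was the highest in 62.7% of them (members 60%) and the lowest in 20.4% (members 20%). Of the 2060, intermediate 3 was the highest in 67.5% (members 64.7%) and the lowest in 17.8% (members 17.6%). Mature 1 was the lowest in 58.1% of them (members 76.5%) and the highest in 22.9% (members 11.8%). Across the 47 members, the log2 difference of young 3 from the mean of young 1 and 2 correlated with that of intermediate 3 from intermediate 1 and 2 at 0.885 (Pearson), and with that of mature 1 from mature 2 and 3 at -0.60. Over the 5011 unigenes the coefficients were 0.766 and -0.65. All points share the same 9 libraries, so the coefficients describe these libraries. The band keeps young and intermediate means close, and whether this raises the match of young 3 with intermediate 3 was not tested. The 5011 unigenes were not put through the band, so the closer match in the members cannot be told apart from their choice. The differences were wider in the members, with a median size on the log2 scale of 0.33, 0.34 and 0.54 for young 3, intermediate 3 and mature 1, against 0.18, 0.21 and 0.25 over the 5011 unigenes. Likewise the SD over 3 libraries was a median of 13.8%, 14.6% and 23.2% of the mean at the 3 stages in the members. In the 5011 unigenes it was 8.09%, 9.85% and 12.9%. The 5011 unigenes were not matched to the members in level, and rounding to whole TPM weighs more at low mature levels. The part of level in these differences was not tested.

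**Figure D3:**
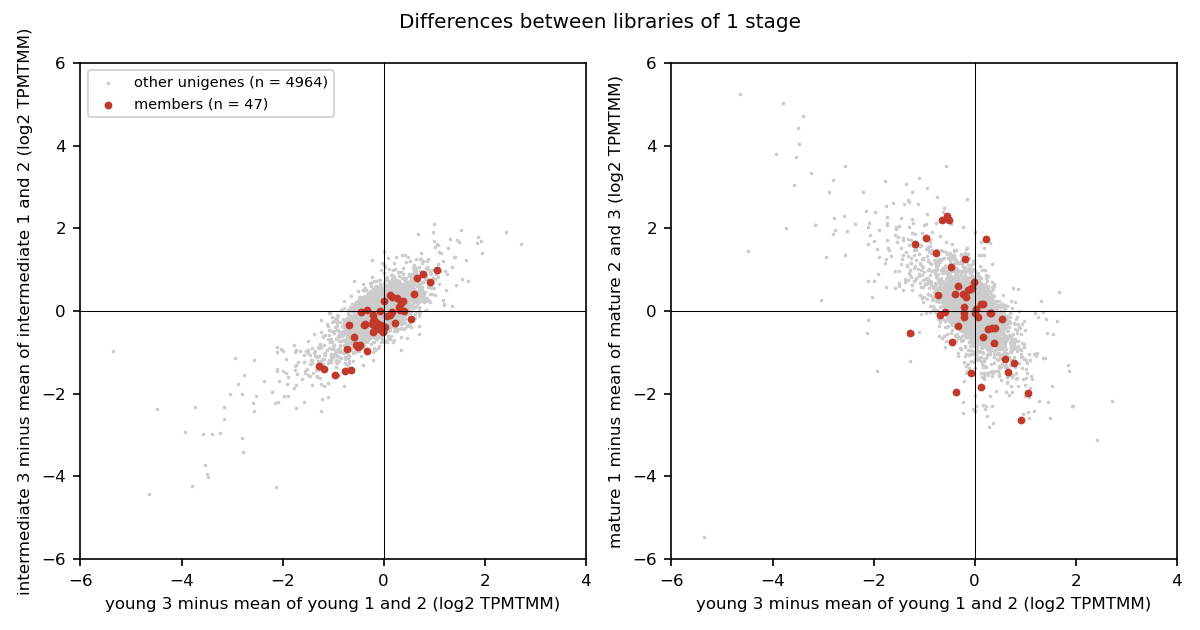
Log2 difference of young 3 from the mean of young 1 and 2 (x axes) against that of intermediate 3 from intermediate 1 and 2 (left) and of mature 1 from mature 2 and 3 (right), in TPMTMM. Red points are the 47 members and grey points the other unigenes with a young mean of at least 20; members follow the rising trend on the left and the falling trend on the right.

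The median ratio of mature to intermediate in the members was 0.219 over all libraries. It was 0.191 to 0.219 with any 1 intermediate or mature library left out (0.192 without mature 1 and 0.216 without intermediate 3). Young libraries do not enter this ratio. The members were chosen by this ratio over all libraries, so a low median was largely set in advance and is no check of stability. The rule itself was met by 23 members without each of the 9 libraries in turn. The members with a low young 3 had a median ratio of 0.188, and those with a high young 3 had 0.232.

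Isoforms and neighbours in the assembly give values that the rule did not use, although RSEM divides shared reads between similar transcripts by estimate, so the split within a gene is uncertain. Of the 47 members, 27 (57.4%) were the only unigene of their Trinity gene, as were 57.1% of all 11709 unigenes. The read clusters of 25 members held 56 other unigenes in the TPM table, 37 of them in the same Trinity gene. Their levels are given as TPM times the library factor of the normalized table. The mature mean was below the intermediate mean in 43 of the 56, for which no share over all unigenes is given. The ratio was at most 0.33 in 19 (33.9%) against 6.44% of all 36907 unigenes. Some of these 19 ratios rest on low levels, with intermediate means down to 0.894 scaled TPM. Most of the 19 are isoforms of the member's own Trinity gene, and some share a cluster with each other. They are therefore independent neither of the members nor of each other.

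In a limma fit over the 36907 unigenes with Benjamini-Hochberg adjustment, which was added after seeing the data, 18 of the 56 fell at the second step against 9.35% of all unigenes, and 2 rose against 7.73%. Among the 37 in the same Trinity gene 13 fell and 1 rose, and among the 19 in another gene of the cluster 5 fell and 1 rose. Without 1 library at a time, 14 to 21 fell and 0 to 3 rose, with 0 risers without intermediate 1. From young to intermediate leaves 0 of the 56 passed (adjusted p, limma) against 0.889% of all unigenes, and at an unadjusted p under 0.05 6 fell and 5 rose. When young and intermediate libraries were fitted alone with the replicate number as a term, 1 rose and 0 fell at this step, against 0.287% and 0.26%. Only 7 of the 56 are in the TPMTMM table, where BS37_c0_g1_i5 fell by 1.10 (standard error 0.27, adjusted p = 0.0141 from limma) and BS9247_c0_g3_i3 by 0.91 in log2 units (standard error 0.24, adjusted p = 0.0182 from limma), against 15.9% of all 11709 unigenes that fell and 16.1% that rose. The first call was lost without intermediate 1, intermediate 2 or mature 2, and the second without intermediate 3. BS204_c0_g1_i5 rose by 0.47 at the first step (adjusted p = 0.0222 from limma; 5.75% of unigenes changed there in either direction) and by 0.30 at the second (adjusted p = 0.0219 from limma), but the first call was lost without any 1 young or intermediate library. The second was lost without intermediate 1 or 2, with upper-quartile scaling and with only those 2 stages fitted, and its value was -0.14 in TPM without scaling.

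The isoform next to BS9513_c0_g1_i2 fell with it. BS9513_c0_g1_i1 had 269, 252 and 138 scaled TPM in young, 290, 300 and 108 in intermediate and 25.3, 5.96 and 5.47 in mature leaves. Young 3 and intermediate 3 were low and mature 1 was high in both isoforms, and the member kept 75.9%, 77.1% and 75.8% of their sum at the 3 stages. From intermediate to mature leaves BS9513_c0_g1_i1 changed by -4.33 on the log2 scale (standard error 0.59, adjusted p = 0.00167 from limma).

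The isoform next to BS33782_c0_g1_i3 went the other way. BS33782_c0_g1_i1 had 13.99, 12.01 and 12.5 scaled TPM in young, 149, 153 and 62.2 in intermediate and 1993, 366 and 323 in mature leaves. All 3 mature libraries lay above all intermediate libraries, and mature 1 lay far above the other mature libraries. Its change from intermediate to mature leaves was 2.45 on the log2 scale (standard error 0.64, adjusted p = 0.0313 from limma). The change was 1.60 without mature 1 (adjusted p = 0.0170 from limma), and the call was lost without young 1, young 2 or any 1 intermediate library (adjusted p of 0.0521 to 0.0963 from limma). It was also the 1 unigene of the 56 that rose at the first step with the replicate block. Of the sum of both isoforms the member held 94.9%, 68.3% and 3.33% at the 3 stages, and the sum itself was 249.7, 383 and 925 scaled TPM. Summed by Trinity gene, the mature libraries had 2060, 379 and 335 scaled TPM against 455, 458 and 236 in intermediate leaves, so the higher mature mean rested on mature 1. Leaving that library out, a choice made after seeing the data, gave a mature mean of 357 and a ratio of 0.932 to the intermediate mean.

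**Figure D4:**
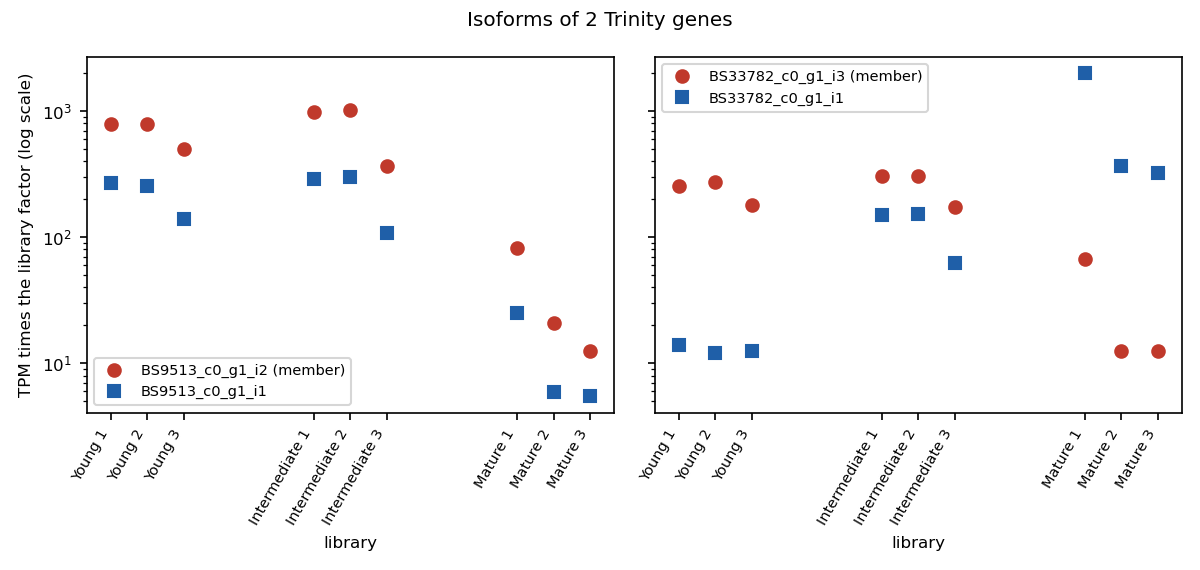
TPM times the library factor (log axis) of the isoforms of BS9513_c0_g1 (left) and BS33782_c0_g1 (right) in the 9 libraries, with members as red circles and the other isoform as blue squares. On the left both isoforms drop in mature leaves; on the right BS33782_c0_g1_i1 goes from a young mean of 12.8 to a mature mean of 894 scaled TPM, with mature 1 far above the other mature libraries, while the member drops.

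Of the 20 Trinity genes with a member and another isoform, BS33782_c0_g1 was the only one whose summed mature mean was above its intermediate mean, and without mature 1 it was below it (ratio 2.41 with and 0.932 without that library). The sum includes the member, whose ratio the rule fixed, so a low summed ratio was largely set in advance. The summed ratio of mature to intermediate was at most 0.33 in 14 of these genes and lay between 0.33 and 1 in 5. No share over other genes with several isoforms is given beside these counts. Those 5 held BS2271_c0_g1_i1 (0.343), BS3225_c0_g1_i5 (0.415), BS37_c0_g1_i3 (0.431), BS642_c0_g1_i1 (0.464) and BS477_c0_g1_i28 (0.555). The member made up over 50% of the young sum in 18 of the 20. BS37_c0_g1_i3 (22.7%) and BS477_c0_g1_i28 (31.9%) were minor isoforms.

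The cluster of BS928_c1_g3_i1 held unigenes of both directions. This member had 51.4, 55.5 and 70.0 TPMTMM in young, 49.8, 47.3 and 56.9 in intermediate and 7.40, 13.5 and 11.8 in mature leaves. In other genes of the cluster, BS928_c1_g2_i1 fell by 3.33 (adjusted p = 0.000375 from limma) and BS928_c1_g1_i1 fell by 1.99 on the log2 scale (adjusted p = 0.000138 from limma) from intermediate to mature leaves. BS928_c1_g2_i3 had 0.2999, 0.118 and 1.51 scaled TPM in young, 2.03, 1.27 and 7.75 in intermediate and 15.5, 22.6 and 20.7 in mature leaves, and rose by 2.38 (standard error 0.50, adjusted p = 0.0126 from limma). That call was lost without intermediate 1 (adjusted p = 0.0525 from limma).

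Some unigenes with a name fell at the same step as the members. The names come from the study's annotation and the roles from Arabidopsis. CER1, a protein of wax alkane synthesis, met every part of the rule and was left out by name. It had 38.6, 37.0 and 21.9 TPMTMM in young, 45.3, 45.5 and 13.0 in intermediate and 3.70, 2.46 and 2.61 in mature leaves, with a ratio of mature to intermediate of 0.0845. Its low young 3 and intermediate 3 place it beside the members of the first kind. GPAT4, an acyltransferase of cutin synthesis, did not meet the rule, with means of 116, 151 and 98.5 TPMTMM at the 3 stages. Of the 199 named unigenes, 32 fell and 26 rose at the second step, beside 15.9% and 16.1% of all unigenes. Among these names only CER1, KCS1 (a condensing enzyme of fatty acid elongation, ratio 0.480) and ROPGEF2 (an exchange factor for ROP GTPases, ratio 0.449, with a young mean of 2.57 TPMTMM) combined a ratio of at most 0.5 with a first step inside the band.

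Of 5 unigenes of cuticle and epidermis, 4 fell at the second step and 0 rose, beside 15.9% and 16.1% of all unigenes. CER1, GPAT2, KCS1 and GPAT4 fell, with log2 changes of -3.00, -2.93, -1.05 and -0.61. KCS2 had -0.41 (adjusted p = 0.0712 from limma). CER1 met the rule, so its fall was fixed by the values that the rule used and is not an independent case in this count. At the first step 0 of these 5 passed the limma test (at an unadjusted p under 0.05, 0 fell and 1 rose), where 2.76% of all unigenes fell and 2.99% rose. With the replicate block 2 rose (GPAT2 and GPAT4) and 0 fell, against 12.9% and 9.39% of all unigenes. The list's median change at the second step, with CER1 included, was -1.05, beside -0.00 over all unigenes. Its summed level was 404 to 482 TPMTMM in young, 479 to 498 in intermediate and 266 to 296 in mature libraries, and none of its unigenes was at 0 TPM throughout a stage.

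Of 7 unigenes of the cell wall 3 fell and 0 rose at the second step, beside the same 15.9% and 16.1%, with a median of -0.16. CSLD5 (cellulose synthase-like), CEL2 (an endoglucanase) and PGA3 (named as a polygalacturonase) rounded to 0 TPM in all mature libraries, and their changes were -1.83, -2.05 and -0.61. The call of PGA3 was lost in 5 of the fits that left out 1 library, with intermediate 1 or 2 or any mature library left out. At the first step 0 of the 7 passed. With the block 1 fell (CSLD5) and 1 rose (BXL2) there, against 9.39% and 12.9% of all unigenes. The summed level of the list was 36.9 to 306 TPMTMM in mature leaves, the top being mature 1, where BXL2 alone had 276.

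Of 6 unigenes of cell division 3 fell and 0 rose (TPX2, BARD1 and CTF18) beside 15.9% and 16.1% of all unigenes, with a median of -0.44 and a summed level of 98.5 to 125, 77.3 to 94.9 and 62.9 to 66.5 TPMTMM at the 3 stages. At the first step BARD1 also fell (2.76% of all unigenes fell there), as did TPX2 and CTF18 with the block (9.39% of all unigenes). The call of CTF18 at the second step was lost without any 1 intermediate library. Of 8 unigenes of development and hormones 2 fell (SPL8 by 3.01 and AN by 0.96) and 0 rose at the second step, beside 15.9% and 16.1% of all unigenes, with a median of 0.06. At the first step SPL8 had already fallen by 1.03 (adjusted p = 0.00945 from limma), the only one of the 8 to pass. With the block 3 fell and 2 rose there, against 9.39% and 12.9% of all unigenes. All 5 unigenes of leaf photosynthesis rose at the second step beside 16.1% of all unigenes, but 3 did in TPM without scaling and 4 without any 1 intermediate library, with a median of 1.02 and a summed level of 4510 to 4560, 7222 to 11467 and 22635 to 23206 TPMTMM. At the first step 2 of the photosynthesis unigenes had already risen (PEPC1 and PPDK), beside 2.99% of all unigenes. With the block 4 rose there, beside 12.9%. The part of these lists in the fall of the unnamed members was not tested.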

How the data were processed

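The authors trimmed the reads of 9 libraries with Trimmomatic, assembled them with Trinity and estimated levels with RSEM, and they removed transcripts of low TPM and redundant ones with CD-HIT-EST (no versions of Trimmomatic and RSEM are stated). The authors deposited TPM for 36907 unigenes and TPMTMM for 11709 of them. TPMTMM equalled a per-library factor (0.841 to 1.31) times the sum of 1 and the TPM rounded to whole numbers, within 0.001 in 11708 unigenes. Since TPM keep no read counts, depth per value is unknown and counting intervals cannot be given. Neither table pairs unigenes with names; the names come from the study's annotation of part of the unigenes.

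The members, the gene lists and the alternatives were chosen with earlier results of these data known. Members were found with pandas 2.3.3 in Python 3.11.15, and figures were drawn with matplotlib 3.10.9. Other unigenes were tested with limma-trend (limma 3.58.1, R 4.3.3) on log2(TPMTMM + 1) with the 9 libraries fitted together by stage alone, Benjamini-Hochberg adjustment over all 11709 unigenes and a threshold of 0.05. Fold changes are on that scale, which understates the change of low unigenes. The fit over the TPM table used log2(TPM × factor + 1). Median log2 changes from intermediate to mature leaves were -0.00 in TPMTMM and -0.43 in TPM. The fit was run on simulated data whose noise was independent between unigenes. That setting lacks the departures of single libraries shared across unigenes, so it does not show how the fit behaves with them.

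At the second step 1858 unigenes fell and 1886 rose, and at the first step 323 fell and 350 rose. Same-numbered young and intermediate libraries deviated together from their stage means (correlations of 0.467, 0.445 and 0.696 across unigenes). Libraries with different numbers were not compared and the plants are not stated, so whether the number pairs them is not known. A fit with the replicate number as a block was therefore run beside the fit by stage alone. With that block, 1099 unigenes fell and 1510 rose at the first step. For intermediate and mature libraries the correlations were 0.588, -0.48 and 0.441, and no block was used for that step in the results above.

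The unigenes named are the 10 members with the highest young mean, the 6 with the smallest and the 6 with the largest ratio of mature to intermediate, the 4 just outside the limit, the cluster mates that passed a test, and the named unigenes of the lists or close to the rule. BS2330_c0_g1_i3, BS74008_c0_g1_i1, BS928_c1_g3_i1, BS3225_c0_g1_i5 and BS477_c0_g1_i28, the mates described by isoform, and the 4 unigenes just outside the band were picked after their values were seen.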

Additional observations from a re-analysis of the deposited data

How the results depend on the processing

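The rule found 91 unigenes in TPM without scaling (36 of them members), 133 with a ratio of mature to intermediate of up to 0.5, 21 with a first-step band from 0.9, 71 and 22 with a young mean of at least 10 and 50, and 76 among all unigenes of the TPM table (45 members). Without 1 library at a time it found 43 to 63, and 23 members met it in all 9 cases. At the second step, 5647 unigenes fell in TPM without scaling and 3450 in the TPM table, and 1286 to 1937 without 1 library. At the first step, 515 fell and 169 rose in TPM without scaling, and 106 rose in the TPM table. Without 1 library 53 to 514 fell and 9 to 620 rose, with the fewest of both without young 2 and the most without mature 1. Of the 7 mates in the TPMTMM table, 5 fell in TPM without scaling and 18 of 56 in the TPM table, and 1 to 3 without 1 library. Their 1 change at the first step was 0 in the TPM table and 0 to 1 without 1 library. Of the 56 mates, 28 fell in TPM without scaling. Without scaling, falls among the 11709 unigenes of the TPMTMM table also went from 1858 to 5647. The share over the whole TPM table at that setting is not given here, so the 28 has no background beside it. Without 1 library, 14 to 21 of the 56 fell and 0 to 3 rose. The change of BS204_c0_g1_i5 was -0.14 in TPM without scaling. With only 2 stages fitted, the replicate block gave 1099 falls and 1510 rises at the first step. At the second step it gave 1308 falls, and over the 9 libraries 2031. Whether the numbers pair the libraries is not known at either step. The fits in the TPM table, and its block and leave-one-out fits, were chosen after seeing the data. For the changes that moved, the cause was not tested.

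Values near 1 TPMTMM stand for 0 rounded TPM, so ratios of the lowest mature levels are limited by the added 1. With 3 libraries per stage and no counts, no sampling error can be set on a single value.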
